A study of Oncorhynchus kisutch with 206 samples.

Results

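Among the 43630 probes of a coho salmon (Oncorhynchus kisutch) brain array, 150 formed the set described here: probes that stood higher in fall fish caught off the west coast of Vancouver Island than in those caught in the Strait of Georgia in both sampling years. The set was selected on 10942 probes with a value on every array, of which 5700, called the eligible probes below, had a fall mean within 0.2 log2 of their summer mean. For each eligible probe the west coast mean minus the Strait mean was taken in fall 2008 and in fall 2009, and the 150 probes with the highest lower value of both were kept. The fall coast difference therefore chose the members and is given as a description without a test. Winter and river fish entered only through the requirement of a value on every array, and summer fish also through the season limit, which pools both coasts.

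Juvenile coho leave their rivers as smolts and feed in coastal waters before the open ocean. The Strait of Georgia is an enclosed sea between Vancouver Island and the mainland, while the west coast of the island faces the open Pacific, and fish of many rivers mix along it. The brain takes part in the control of feeding, growth and migration during these months. The array names its probes by column and row, and no table used here pairs those names with genes, so neither the function of the members nor the tissue label could be checked against marker genes.

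Each array held the brain RNA of 1 fish, labelled with an Alexa dye, against a pool of all brain samples labelled with another Alexa dye. Fall fish came from the west coast (17 in 2008 and 7 in 2009) and from the Strait (11 in 2008, all from its northern and middle waters, and 43 in 2009). Summer fish of 2009 numbered 8 off the west coast and 35 in the Strait, with 8 more from the Strait in 2008, and the winter fish numbered 6 and 3. River fish were 5 Chilliwack parr and 16 Chilliwack smolts of 2008 and 35 smolts of 2009 (8 Puntledge, 10 Capilano, 8 Chehalis and 9 Salmon), and 12 spring fish came from the south Strait. Most groups mixed hatchery and wild fish. Wild fish made up 18 of 24 on the west coast in fall and 29 of 54 in the Strait, and 7 of 8 and 17 of 35 in summer. The 8 Puntledge smolts, the 8 Chehalis smolts and the 5 parr were all hatchery fish. The 9 Salmon smolts and the 12 spring fish were all wild, and the 3 Strait winter fish were all wild males. Values are log2 ratios, likely of fish over pool; no label gives the log base or direction, which were inferred from the spread of the values, and with the other direction higher and lower change places throughout.

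In the Strait in fall 2009, 2 fish stood apart. The mean over the members was -2.01 in fish 3020 and -1.49 in fish 2621, against -0.65 in the next lowest of the 43, and the SD of all values on their arrays was 1.61 and 1.51, against a group median of 0.84. Both were hatchery fish, 1 of Fraser stock and 1 of S_Main stock. Fall values of the Strait that these fish enter are therefore also given without them where the values moved most. Without both fish the median member lay 0.61 higher off the west coast than in the Strait in fall 2009, against 0.67 with them. All 150 members were higher, but the other fish of this comparison also chose the members, so the sign was favoured by the choice. Choosing the members without fish 3020 and 2621 kept 119 of the 150. Array SD was 0.87 ± 0.17 off the west coast and 0.70 ± 0.13 in the Strait in fall 2008 (SD, n = 17 and 11). In fall 2009 it was 0.80 ± 0.13 and 0.85 ± 0.21 (n = 7 and 43), and 0.81 ± 0.15 in the Strait without both fish (n = 41). Over fall Strait fish the mean over the members correlated with array SD at r = -0.71 (n = 54), and at -0.26 without both fish (n = 52). Off the west coast the correlation was -0.27 (n = 24). With the mean over the eligible probes, members included, the member mean correlated more strongly. This r was 0.83 over fall Strait fish, 0.33 without both fish and 0.54 off the west coast. The eligible mean was -0.50 in fish 3020 and -0.39 in fish 2621, against a group median of -0.014, so both arrays were low beyond the members. The parts of array SD and of the eligible mean in the result were not tested.

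In fall, the members stood on average above the pool off the west coast and below it in the Strait. The mean over the members was 0.25 ± 0.096 in west coast fish and -0.33 ± 0.14 in Strait fish in 2008 (SD, n = 17 and 11). It was 0.37 ± 0.21 in west coast fish and -0.36 ± 0.35 in Strait fish in 2009 (n = 7 and 43). West coast fish ranged from 0.11 to 0.81 over both years and Strait fish from -2.01 to 0.098, so no fish of 1 coast lay within the range of the other, a separation the choice of members works towards. The eligible probes averaged -0.095 ± 0.099 off the west coast and -0.041 ± 0.096 in the Strait (SD, n = 24 and 54). Fish 3537 had the highest mean, 0.81, and without it the median west coast difference of fall 2009 was 0.61.

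**Figure D1:**
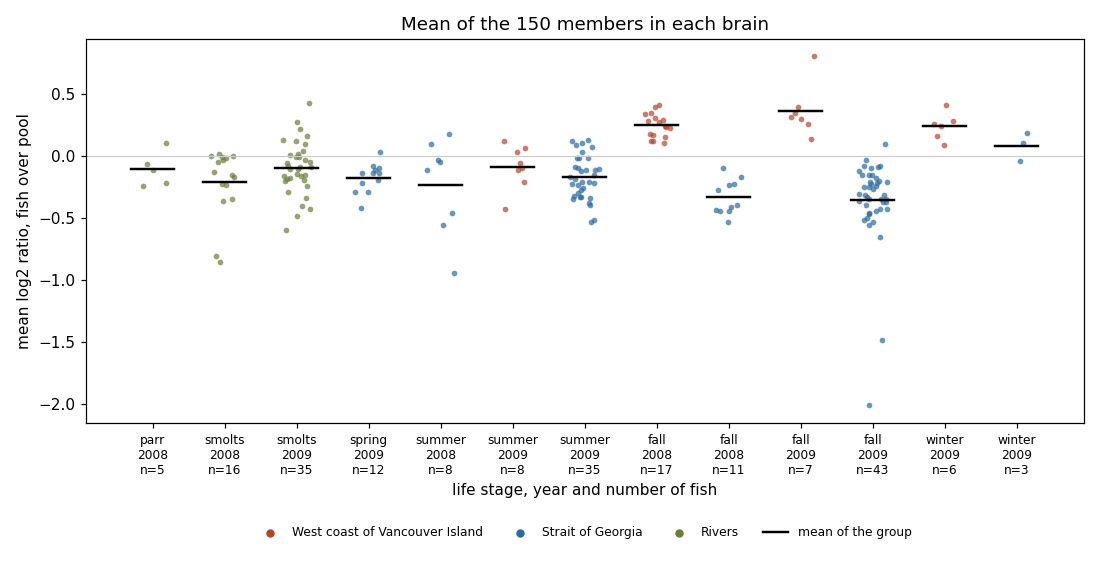
Mean log2 ratio of the 150 members in each brain (points), by life stage and year, with the mean of each group as a bar; the fall groups were used to choose the members. West coast fish of fall lie between 0.11 and 0.81, above every Strait fish of fall, while the summer coasts overlap.

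Single members overlapped between the coasts far more than their mean. Only 1 of the 150 had every west coast fish above every Strait fish in fall 2008, and none did in fall 2009. Over the 5700 eligible probes, members included, the counts were also 1 and 0. Coast differences of the members ran from 0.40 to 2.23 in 2008, with a median of 0.51, and from 0.40 to 1.81 in 2009, with a median of 0.67. The same medians over the eligible probes were -0.030 and -0.023. The lower of both differences came from 2008 in 104 members and from 2009 in 46, and it exceeded 0.6 in 27. At the end of the list, C061R031 entered with a lower value of 0.401, and C193R143 stayed outside with 0.3995, so the limit separates probes that hardly differ. C061R031 had -0.17 ± 0.44 in west coast fish and -0.57 ± 0.29 in Strait fish of fall 2008 (SD, n = 17 and 11). In the same fall C193R143 had 0.024 ± 0.65 off the west coast and -0.45 ± 0.38 in the Strait.

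The members with the highest lower values did not shift evenly across fish. C098R070 led the list with differences of 2.23 in 2008 and 1.20 in 2009. In the 7 west coast fish of fall 2009 it read 1.10, 0.91, 0.88 and 0.41 in 4 fish and -2.82, -4.05 and -6.52 in the other 3. In the 43 Strait fish of that fall it ran from -7.60 through a median of -3.23 to 1.34. Both coasts thus held fish near the pool and fish far below it. C166R013, the second of the list, read 1.83, 1.76, 1.52, 0.43, -0.97, -3.63 and -5.22 in the same 7 west coast fish, and from -6.51 through -0.60 to 2.32 in the Strait. The differences of its means were 2.13 and 1.14.

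C098R070, C166R013, C194R136 and C050R072 were the 4 members with the widest spread over all fish, with SDs of 2.44 to 3.19, against 1.35 for the next member and a median of 0.66. They were singled out after their values were seen. Over all fish their pairwise correlations ran from 0.88 to 0.95. Their mean fell into a high and a low range, with 83 fish above -2 and 6 fish between -2.5 and -1.5. In fall the high range held 11 of 17 west coast fish and 3 of 11 Strait fish in 2008, and 4 of 7 and 22 of 43 in 2009. Below the high range the mean of these members was -5.09 in 6 west coast fish and -5.38 in 8 Strait fish in 2008, and -3.71 in 3 west coast fish and -4.95 in 21 Strait fish in 2009. In summer 2009 the high range held 0 of 8 west coast fish, whose means ran from -5.57 to -2.92, and 23 of 35 Strait fish. In winter it held 3 of 6 west coast fish and 1 of 3 Strait fish. It also held 9 of 35 smolts of 2009, 1 of 16 smolts of 2008, 1 of 5 parr and 2 of 12 spring fish. Another 9 probes with values on all arrays correlated above 0.9 with this mean. Of these, 7 lay outside the season limit of the selection. C068R092 and C145R160, named after their values were seen, were eligible but had fall 2009 coast differences of only 0.27 and 0.084.

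**Figure D2:**
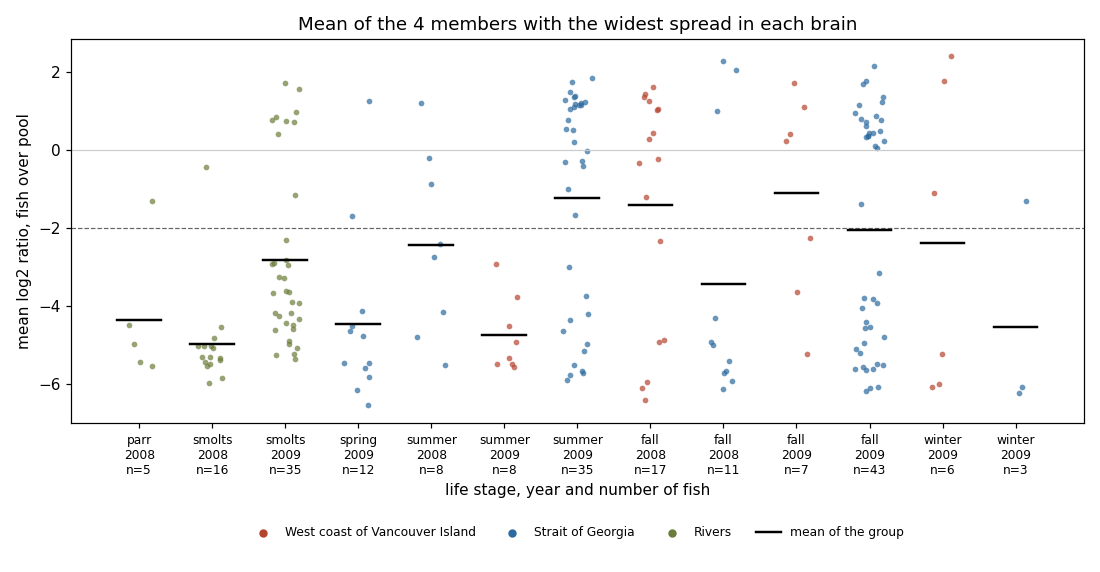
Mean log2 ratio of C098R070, C166R013, C194R136 and C050R072 in each brain (points), with group means as bars and a dashed line at -2. All 8 west coast fish of summer 2009 lie below the line, and every other group has fish on both sides of it.

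The remaining 146 members carried the fall difference as well, which is built in, since each member was chosen by its own fall difference. Their mean was 0.29 ± 0.093 off the west coast and -0.25 ± 0.095 in the Strait in fall 2008 (SD, n = 17 and 11). In fall 2009 it was 0.41 ± 0.22 off the west coast and -0.31 ± 0.34 in the Strait (n = 7 and 43). In summer 2009 it was 0.042 ± 0.16 off the west coast and -0.14 ± 0.15 in the Strait (n = 8 and 35). West coast winter fish had 0.31 ± 0.11 and Strait winter fish 0.21 ± 0.072 (n = 6 and 3).

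In summer 2009, between the 2 falls that chose them, the members leaned towards the west coast by less than in fall. Of the 150, 2 passed the test, 1 in each direction. The mean over the members was -0.086 ± 0.18 in west coast fish, from -0.43 to 0.12, and -0.17 ± 0.17 in Strait fish, from -0.53 to 0.13 (SD, n = 8 and 35). The ranges overlapped, and 6 of the 8 west coast fish lay above the Strait median. Member by member, the fitted difference had a median of 0.20, with 104 of 150 positive, against a median of -0.076 and 41.4% positive over the eligible probes. At an unadjusted p under 0.05, 30 members were higher and 5 lower off the west coast. These were 23.3% of the members, against 15.4% of all 31972 tested probes and 18.9% of the eligible probes. After adjustment over all tested probes, 1.16% were called, 0.213% higher and 0.951% lower, so the 2 called of 150 members are close to the background. The call count depended on the fit: with array weights 22 members were called, all higher off the west coast, and with only the groups compared none was, by limma, though 38 had an unadjusted p under 0.05. The count over all probes also moved with the fit, so these counts are not read as a result about the members. In 24 members the summer difference was at least as large as the lower fall difference, a description with no count over the eligible probes beside it.

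C074R167 was called higher off the west coast in summer. It read 0.18, 0.28, 0.29, 0.40, 0.41, 0.56, 0.58 and 0.90 in the 8 west coast fish, against a lowest value of -1.87, a median of -0.24 and a highest of 0.62 in the 35 Strait fish. All 8 west coast fish lay above the Strait mean of -0.29, and 1 lay above the Strait range. The difference was 0.76 ± 0.19 (SE, limma, adjusted p = 0.0235), or 1.69-fold if the ratios are log2. C050R072, one of the 4 members of wide spread, was called lower. Its values in west coast fish ran from -7.36 to -4.75 around a median of -6.17, against -6.98 to 2.27 around -0.78 in Strait fish, and all 8 west coast fish lay below the Strait mean. The difference was -4.07 ± 1.13 (SE, limma, adjusted p = 0.0441), with the opposite sign of its fall differences, and it mixes the high and low ranges described above.

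The coasts held different stocks in summer. The 8 west coast fish were of Columbia (6), North (1) and Oregon (1) stock and the 35 Strait fish of ECVI (10), Fraser (16) and S_Main (9) stock, so coast and stock cannot be told apart. West coast fish were also shorter, 15.9 ± 1.68 cm against 18.2 ± 2.20 cm (SD). With fork length as a term C074R167 kept its call (adjusted p = 0.0343) and C050R072 lost it (adjusted p = 0.0673), and without the 6 Columbia fish neither was called (adjusted p = 0.186 and 0.294, limma).

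**Figure D3:**
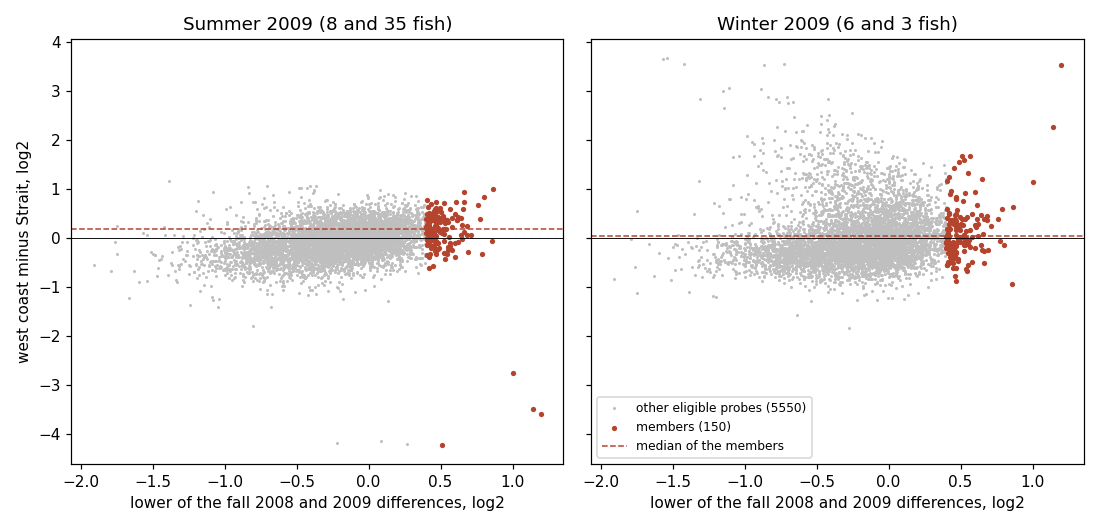
West coast minus Strait difference of group means in summer 2009 (left) and winter 2009 (right) against the lower of the 2 fall differences, both in log2, for 150 members and the other eligible probes. The members' median is above 0 in summer and near 0 in winter, and the 4 members below -2 in summer are the wide-spread ones.

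In winter the group mean over the members lay above the pool on both coasts, and no member differed between the coasts beyond the test. West coast fish had member means of 0.087, 0.16, 0.24, 0.26, 0.29 and 0.41, and the 3 Strait fish had -0.039, 0.10 and 0.19. The means were 0.24 ± 0.11 off the west coast and 0.083 ± 0.11 in the Strait (SD, n = 6 and 3), and 4 of 6 west coast fish lay above the highest Strait fish. The fitted difference had a median of 0.046, with 82 of 150 members positive, against -0.11 and 39.8% over the eligible probes. limma called 0 of 20731 tested probes (0%). At an unadjusted p under 0.05 it passed 11 members, all higher off the west coast. These were 7.33% of the members, against 7.70% of all probes and 7.35% of the eligible probes. With array weights 33 members were called, 21 of them higher, in a fit that called 9028 probes. In 10 members every west coast fish lay above every Strait fish, and in 2 every one lay below, against 1.14% and 1.72% of the eligible probes. The 3 Strait fish were all of Fraser stock and the 6 west coast fish of Puget_Sound (5) and North (1) stock. Coast and stock therefore cannot be told apart here either. Origin and sex also differed: the Strait fish were all wild males, while the west coast fish were 4 hatchery and 2 wild, 2 males and 4 females.

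C060R037 had the smallest winter p among the members. It read 0.75, 0.58, 0.42, 0.36, 0.34 and -0.62 in west coast fish, against -1.11, -1.39 and -1.61 in Strait fish. All 6 west coast fish lay above all 3 Strait fish, with a difference of 1.78 ± 0.62 (SE, limma, adjusted p = 0.627). C102R022 read 1.45, 1.32, 0.86, 0.66, 0.62 and -0.48 in west coast fish, against -0.064, -0.45 and -1.25 in Strait fish. Its difference was 1.35 ± 0.53 (SE, limma, adjusted p = 0.627). The lowest west coast fish of both probes, 4215, was the same fish.

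The rule kept each member's fall and summer means close over both coasts and asked for a high fall difference between them, so opposite steps on the coasts are largely built in. Off the west coast the members' median change of group means was 0.34 between summer and fall, with 134 of 150 higher in fall, and -0.13 between fall and winter. In the Strait it was -0.16 between summer and fall, with 28 higher in fall, and 0.52 between fall and winter, with 131 higher in winter. The eligible probes moved by 0.057 and -0.084 off the west coast and by 0.022 and -0.053 in the Strait over the same steps. These steps use the fall and summer means that chose the members and are given without a test. A total of 54 members were higher off the west coast in both summer and winter, 49 in summer alone, 28 in winter alone and 19 in neither. By group means, 68.7% of the members were higher off the west coast in summer and 54.7% in winter. Over the eligible probes these shares were 42.0% and 38.7%. The 4 classes themselves have no count over the eligible probes beside them and are a description.

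By stock, the fall difference appeared within each of the 4 stocks caught on both coasts in fall. West coast fish of ECVI stock had a member mean of 0.22 ± 0.076 and Strait fish of that stock -0.32 ± 0.21 (SD, n = 3 and 17). For S_Main the means were 0.27 off the west coast and -0.37 in the Strait (n = 2 and 12; -0.27 in the Strait without fish 2621), for Chilliwack_R 0.35 and -0.19 (n = 1 and 4), and for North 0.28 and -0.23 (n = 3 and 1). The median member difference was 0.54, 0.58, 0.55 and 0.52 in these stocks, with 141, 137, 119 and 130 of the 150 members higher off the west coast. Over the eligible probes the same medians lay between -0.18 and -0.031. These fish are part of the groups that chose the members, so the sign was favoured by the choice. The years are also pooled: both west coast S_Main fish were of 2008 and all 12 Strait S_Main fish of 2009, and all 17 Strait ECVI fish were of 2009, so coast and year cannot be told apart in S_Main. Stocks caught in fall off the west coast alone had means of 0.30 in Puget_Sound (n = 5), 0.23 in Washington (n = 3), 0.33 in Columbia (n = 4) and 0.28 in Oregon (n = 3). The Columbia mean was 0.17 without fish 3537. Fraser fish, caught in the Strait alone, had -0.41 ± 0.41 (SD, n = 19), and -0.32 ± 0.12 without fish 3020 (n = 18).

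**Figure D4:**
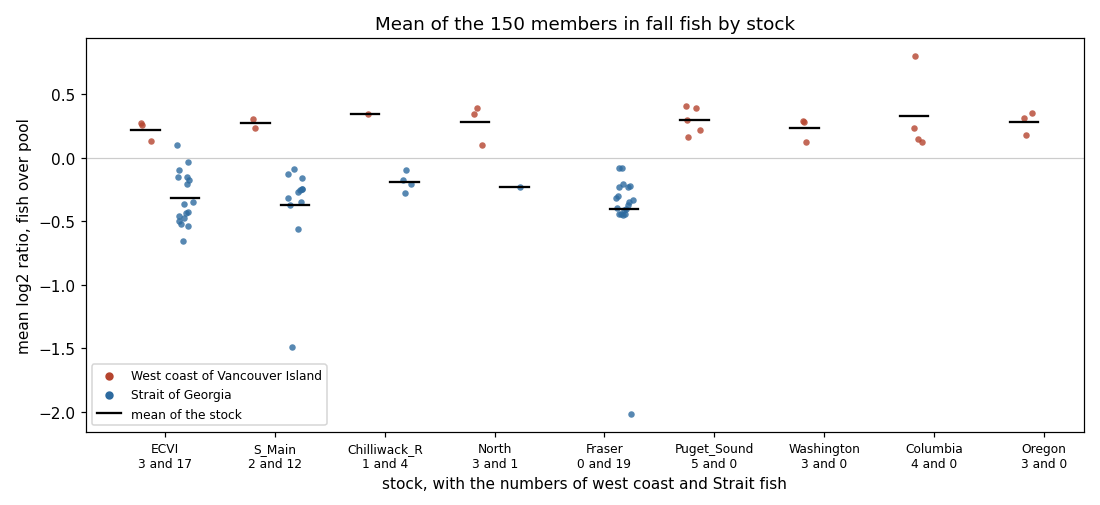
Mean log2 ratio of the 150 members in each fall fish (points) by stock, west coast fish left of Strait fish, with bars at the means; 1 Strait fish with no stock label is not drawn. In the 4 stocks caught on both coasts in fall every west coast fish lies above every Strait fish of its stock.

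Among west coast fall fish, no member differed between stocks beyond the test. West coast fall fish of stocks not caught in the Strait in fall had a member mean of 0.29 ± 0.17, and those of stocks caught on both coasts in fall 0.27 ± 0.097 (SD, n = 15 and 9). The split is by fall catches, since spring fish 2153 of the Strait was of Puget_Sound stock. Without fish 3537 the first mean was 0.25 ± 0.096 (n = 14), below the other. The 4 members of wide spread enter these means with -2.12 in the 15 fish and 0.027 in the 9 others. Over the remaining 146 members the means were 0.36 ± 0.17 and 0.27 ± 0.085 (SD, n = 15 and 9). The medians over the same fish were 0.34 and 0.28, with fish 3537 included at 0.89. The fitted difference had a median of 0.076 over the members, with 96 positive, against 0.092 over the eligible probes. limma called 0 of 31353 probes (0%). An unadjusted p under 0.05 was found in 14 members (9.33%, against 5.56% of all probes and 7.81% of the eligible probes). The smallest p values were those of C102R022, with 0.73 ± 0.23 (SE, adjusted p = 0.832), and C111R090, with 0.40 ± 0.14 (SE, adjusted p = 0.832). For C111R090 all 15 fish of the stocks not caught in the Strait in fall lay above the mean of the others. Among the 4 members of wide spread the high range held 7 of these 15 fish and 8 of the 9 others.

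In the Strait in fall 2009, ECVI fish had a member mean of -0.32 ± 0.21 and Fraser fish -0.41 ± 0.49 (SD, n = 17 and 13). The order of these means rested on fish 3020: without it the 12 Fraser fish had -0.28 ± 0.12. The median fitted member difference was 0.070, and -0.046 in a fit without both fish that stood apart, 3020 and 2621. limma called 0 of 30173 probes (0%). An unadjusted p under 0.05 was found in 2 members (1.33%, against 2.94% of all probes and 1.70% of the eligible probes). C171R020 and C063R156 had the smallest p values, with differences of 0.37 ± 0.18 and 0.36 ± 0.18 (SE, adjusted p = 0.9997 for both). In summer 2009, ECVI fish had a member mean of -0.21 ± 0.16 and Fraser fish -0.19 ± 0.16 (SD, n = 10 and 16). limma called 0 members there, while 91 of 30978 probes passed (0.294%). At an unadjusted p under 0.05, 9 members were higher and 7 lower in ECVI fish. These were 10.7% of the members, against 18.8% of all probes and 10.0% of the eligible probes. C115R127 came closest, from -0.030 through a median of 0.64 to 1.15 in ECVI fish, against -1.48 through -0.087 to 0.64 in Fraser fish. Its difference was 0.88 ± 0.26 (SE, adjusted p = 0.0740). C030R169 ran the other way, with all 10 ECVI fish below the Fraser mean and a difference of -0.59 ± 0.19 (SE, adjusted p = 0.0909).

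Within the Strait no member differed by place beyond the test. In fall 2009 the member mean was -0.39 ± 0.39 in the south and -0.32 ± 0.31 in the northern and middle Strait (SD, n = 22 and 21), and -0.31 ± 0.16 and -0.27 ± 0.16 without the 2 fish that stood apart (n = 21 and 20). limma called 0 of 31913 probes (0%), with a median of -0.040 over the members. An unadjusted p under 0.05 was found in 9 members (6.00%, against 3.50% of all probes and 3.26% of the eligible probes). The named members were C262R025, with -0.47 ± 0.20, and C183R087, with 0.37 ± 0.16 (SE, adjusted p = 0.9998 for both).

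The mean over the members was -0.11 ± 0.14 in parr, -0.21 ± 0.27 in Chilliwack smolts of 2008 and -0.094 ± 0.21 in smolts of 2009 (SD, n = 5, 16 and 35). The 4 members of wide spread weighed on these means, and over the other 146 they were 0.0076 ± 0.11, -0.080 ± 0.27 and -0.020 ± 0.21. In 2009 the mean over all members was -0.21 ± 0.13 in Puntledge smolts, from Vancouver Island, and -0.059 ± 0.22 in smolts of the 3 mainland rivers (SD, n = 8 and 27). Over the 146 members it was -0.13 ± 0.091 in Puntledge and 0.012 ± 0.23 in mainland smolts. Among the mainland rivers the mean over all members was -0.011 ± 0.27 in Capilano, -0.10 ± 0.24 in Chehalis and -0.074 ± 0.15 in Salmon smolts (n = 10, 8 and 9), which overlapped and were not tested. Between Puntledge and mainland smolts the median member difference was -0.19, with 100 of 150 negative, against 0.021 over the eligible probes. At an unadjusted p under 0.05, 9 members were higher and 31 lower in Puntledge smolts. These were 26.7% of the members, against 11.8% of all 31465 probes and 15.5% of the eligible probes. After adjustment 0 members were called higher and 2 lower, where 0.420% of all probes were called, 0.292% higher and 0.127% lower.

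C214R145 read 0.34, 0.17, 0.027, 0.0045, -0.11, -0.19, -1.54 and -2.26 in Puntledge smolts, against a lowest value of -1.08, a median of 0.41 and a highest of 2.53 in mainland smolts. All 8 Puntledge smolts lay below the mainland mean, and the difference was -0.88 ± 0.21 (SE, limma, adjusted p = 0.0255). C043R142 read from -2.11 through a median of -0.016 to 1.06 in Puntledge smolts, against -1.50 through 0.66 to 2.99 in mainland smolts. Its difference was -0.83 ± 0.22 (SE, limma, adjusted p = 0.0487). Fish 1686 was the lowest Puntledge smolt for both, and without it neither was called, with -0.65 ± 0.21 and -0.54 ± 0.22 (SE, adjusted p = 0.146 and 0.301). All Puntledge smolts were hatchery fish, while 12 of the 27 mainland smolts were wild. With origin as a term C214R145 kept its call (adjusted p = 0.0269) and C043R142 did not (adjusted p = 0.0874).

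Body length, origin and sex were set against the members among fall fish of 1 coast. Along fork length in Strait fish of fall 2009 the median slope was -0.023 per cm, with 114 of 150 members negative, but 0.0012 per cm without the 2 fish that stood apart. limma called 0 of 32873 probes there (0%). An unadjusted p under 0.05 was found in 16 members (10.7%, against 8.56% of all probes and 5.09% of the eligible probes). The named members were C101R060, with -0.14 ± 0.041 per cm, and C059R038, with 0.14 ± 0.049 per cm (SE, adjusted p = 0.414 and 0.455). In west coast fish of fall the median slope was 0.0016 per cm. No member was called there, while 76 of 32216 probes passed (0.236%). An unadjusted p under 0.05 was found in 21 members (14%, against 9.32% of all probes and 12.0% of the eligible probes). C028R013, with 0.21 ± 0.049 per cm, and C164R055, with 0.069 ± 0.019 per cm, came closest (SE, adjusted p = 0.0811 and 0.153). West coast fish of fall 2009 were longer than Strait fish, 29.4 ± 2.66 cm against 24.3 ± 2.36 cm (SD, n = 7 and 43). Among fish of 24 to 29 cm, 3 off the west coast and 28 in the Strait, the median member difference was 0.69 and 146 of 150 members were higher off the west coast, against a median of -0.040 and 47.2% over the eligible probes. These fish also chose the members, so the sign was favoured by the choice and says nothing about length.

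Hatchery fish of the Strait in fall 2009 had a member mean of -0.43 ± 0.47 and wild fish -0.29 ± 0.17 (SD, n = 21 and 22). Without the 2 fish that stood apart the hatchery mean was -0.29 ± 0.15 (n = 19). The median fitted difference over the members was -0.13, and 0.035 without those fish, both from hatcheries. limma called 0 of 31925 probes (0%). At an unadjusted p under 0.05, 16 members passed, 15 of them lower in hatchery fish. These 16 were 10.7% of the members, against 9.17% of all probes and 8% of the eligible probes. C065R080 had -0.68 ± 0.20 and C199R121 -0.53 ± 0.17 (SE, adjusted p = 0.275 and 0.297). Males had a member mean of -0.38 ± 0.41 and females -0.34 ± 0.30 (SD, n = 21 and 22), and -0.30 ± 0.17 and -0.28 ± 0.16 without the same 2 fish (n = 20 and 21). limma called 0 of 31954 probes between them (0%). Only 2 members had an unadjusted p under 0.05 (1.33%, against 1.84% of all probes and 1.21% of the eligible probes). These were C175R143, with -0.41 ± 0.18, and C026R102, with -0.34 ± 0.14 (SE, adjusted p = 1 for both).

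Most members co-varied only weakly with each other. Among the 51 smolts the median correlation between 2 members was 0.082, against 0.028 between 2 eligible probes, and 35.0% of the member pairs were below 0. In fall Strait fish it was 0.21, but 0.057 without the 2 fish that stood apart, and in fall west coast fish it was 0.046, against 0.045 among eligible probes. Probes share arrays and fish share slides, so the correlations are a description. Over the 56 river fish C005R138 and C067R072 followed the mean of the other members most closely (r = 0.73 and 0.68), and C010R106 and C219R141 least (r = -0.32 and -0.28). A total of 131 members had a positive correlation with that mean, and 29 exceeded 0.5.

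Grouped by correlation over the 128 fish of other seasons than fall (average linkage at r = 0.4), 47 members fell into 6 groups of at least 4, and 44 members stood alone. Probes are named here after their values were seen. In summer the largest group, of 19 members led by C080R079, had 0.27 ± 0.25 off the west coast and -0.19 ± 0.36 in the Strait (SD, n = 8 and 35). In rivers the same 19 had -0.088 ± 0.28 in Puntledge smolts and 0.39 ± 0.33 in mainland smolts (n = 8 and 27). A group of 7 that included C054R076, C060R037, C102R022 and C059R038 had -2.15 ± 0.53 in parr and -1.21 ± 0.84 in smolts of 2009 (n = 5 and 35). River means of 2009 ran from -1.63 ± 0.64 in Salmon to -0.48 ± 0.42 in Chehalis smolts (n = 9 and 8), and spring fish of the Strait had -1.17 ± 0.75 (n = 12). The Salmon smolts were all wild and the Chehalis smolts all hatchery fish, so river and origin cannot be told apart between them. In winter the same 7 members had 0.43 ± 0.38 off the west coast and -0.90 ± 0.33 in the Strait (n = 6 and 3), and in summer -0.34 ± 0.86 off the west coast and -0.21 ± 0.53 in the Strait (n = 8 and 35). A group of 5 led by C206R062 had winter means of 1.10 ± 0.096 off the west coast and 0.70 ± 0.31 in the Strait (n = 6 and 3). The 4 members of wide spread formed a group of their own. Since the groups were formed on these fish, none of these values was tested.

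**Figure D5:**
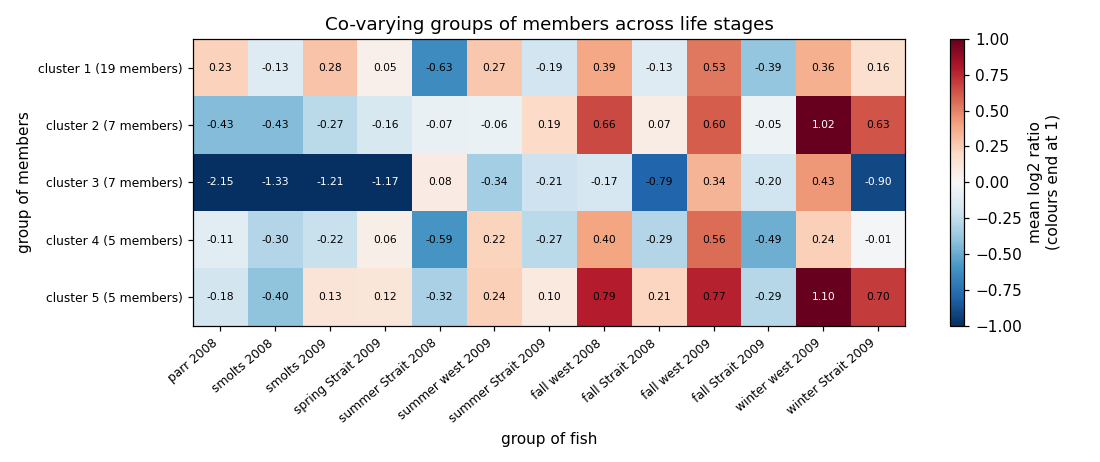
Mean log2 ratio of 5 co-varying groups of members (rows) in 13 groups of fish (columns), with the 4 wide-spread members left out. Fall columns are positive off the west coast and lower in the Strait for every row but the third in 2008, where both coasts lie below 0, while the river, summer and winter columns differ from row to row.

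Slides were shared in part. In fall 2008, 5 slides held fish of both coasts (8 west coast and 6 Strait fish), and within them the median member difference was 0.52, with 146 of 150 higher off the west coast, against a median of -0.016 and 48.1% over the eligible probes. In fall 2009, 2 slides did so (3 and 3 fish), with 0.55 and 138 of 150, against -0.050 and 45.9%. These fall fish chose the members, so the counts are a description and no check on the slides. In summer 3 slides held both coasts. With the slide as a fixed term the median summer difference was 0.16, and C074R167 was called (adjusted p = 0.0312) while C050R072 was not (adjusted p = 0.147).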

How the data were processed

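The deposited values, 1 per probe and array, were used as log2 ratios, centred near 0 on each array by the authors (medians -0.11 to 0.19). The steps of feature extraction and normalization, and the filter behind the 16.6% to 57.6% empty values per array, were not given in the sources used here. Dyes are as the labels' protocols state, with no dye swap. The base and direction were checked on probes split into 10 classes by variance: the back-transformed class mean, on the log2 scale, stayed between 0.058 and 0.17 as fish over pool and ran from -0.017 to 1.10 as pool over fish. A natural log, with 0.20 to 0.49, is not excluded. Array pairs correlated from -0.49 to 0.92, 1.12% of them below -0.3, and no pair was identical. The direction was kept on every array because the dyes are stated. The source of the negative correlations was not tested. Fish number is the replicate.

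Each of the 11 comparisons was tested in limma 3.58.1 (R 4.3.3), with the slide (61 in all, 1 to 4 arrays each) as a random block, empirical Bayes variances and p-values adjusted by Benjamini-Hochberg (threshold 0.05) across the probes holding 3 or more values per side (6 for slopes). The coast, place and river contrasts came from 1 fit of 19 group means, the others from the fish concerned. Scripts were tested on simulated data. The members, lists and comparisons were chosen with earlier results of these data known. Named probes are the 2 leading members, those at the limit, up to 2 called members in each direction of a comparison (otherwise the 2 of smallest p), and the 2 that follow the other members most and least in river fish. No paired analysis was possible because the fish numbers are unique to each fish. The number of arrays limits the precision.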

Additional observations from a re-analysis of the deposited data

Results flagged for a closer look

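Fish far from the others of their group were sought in 24 group and probe combinations of 4 to 10 fish, and 4 were found. Chance gives about 1 in 20 for values not picked beforehand, which does not hold here. The west coast fish of fall 2009 chose the members, and C060R037 and C043R142 were named by their p in the groups flagged. The count is therefore not read against that rate. The highest mean over the members among the 7 west coast fish of fall 2009 was 0.805, in fish 3537 of Columbia stock, with 0.393 in the next fish. Among the 9 Salmon smolts the lowest mean was -0.429, in fish 1443, against -0.107 in the next. In winter fish 4215 had the lowest C060R037 value off the west coast, -0.621, against 0.340 in the next of 6. Among Puntledge smolts fish 1686 had the lowest C043R142 value, -2.11, against -0.268 in the next of 8. The array SDs of the 4 fish were 0.942, 0.740, 0.731 and 0.798.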

How the results depend on the processing

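The members chosen depend on the rule. Of the 150, 70 were shared when medians replaced means, 78 and 91 with a season limit of 0.1 and 0.5, and 100 to 150 under the other 5 rules, of which 1 (without the 2 fish that stood apart) was added after seeing the data. Both ends of this range come from a shorter and a longer list of the same ranking. Their overlap was fixed in advance and says nothing about the rule.

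In summer, the count of called members was 14 after quantile normalization, 8 with arrays centred and scaled, 22 with array weights, 4 among fully measured probes and 0 with only the groups compared. It was 1 with the slide as a fixed term, with no slide term and with fork length as a term, and likewise when the members were chosen by medians, on quantile-normalized values, with a season limit of 0.1 or without the 2 fish. The median summer difference stayed between 0.16 and 0.27 under 17 alternatives.

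Winter calls were 33 with array weights, when 9028 of all probes passed, and 0 under every other alternative, including when each Strait fish was left out (0 to 0), although without fish 4129 the fit called 464 probes that were no members. The winter median ran from -0.00038 to 0.27 under 18 alternatives.

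Puntledge calls were 8 with array weights, 4 after quantile normalization, 1 with the slide as a fixed term or origin as a term, and 0 with only the groups compared and without fish 1686. Calls for length off the west coast were 1 after quantile normalization and with arrays centred and scaled, and 21 with array weights. Those for origin were 6 with array weights. C065R080 reversed to 0.17 with the slide as a fixed term. The cause of these changes was not tested. The counts of members for place, both stock comparisons in the Strait, west coast stocks, length in the Strait and sex stayed at 0 under every alternative run. Counts over all probes moved more: 23 to 887 in summer (372 in the report), 14 to 456 for Puntledge (132), 0 to 328 for stock in summer (91), 5 to 6447 for length off the west coast (76) and 0 to 894 for origin (0). The member counts of single alternatives are therefore not read as a result about the members. The members' median changed sign under 1 to 3 alternatives for winter, stock in the Strait, both length slopes, origin and sex. Without the Columbia fish, 2 west coast fish remained in summer, and winter leave-outs kept 2 Strait fish.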

Other observations

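The members lay further to one side of the array than other probes. Their median column was 102 and their quartiles 50.5 and 170, against 130, 68 and 195 for the eligible probes, while the median rows were 85.5 and 82. Within 2 columns and rows of another member lay 13 of the 150. No such count for other probes stands beside it, so it does not show whether members lie close together. The part of array position in the coast difference was not tested.

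In summer 2008, when no west coast fish were sampled, the 8 Strait fish had a mean over the members of -0.23 ± 0.38, against -0.17 ± 0.17 in the 35 Strait fish of 2009 (SD).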
